A study of Homo sapiens with 9 samples.

Results

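AP-1 is a family of dimeric transcription factors built from JUN proteins (JUN, JUNB, JUND) paired with one another or with FOS proteins (FOS, FOSL1, FOSL2) and ATF proteins such as ATF3. EGR1, a zinc finger activator, MYC, a growth-promoting bHLH factor, and IER2, a small nuclear protein, belong with several AP-1 genes to the immediate-early genes. These 10 genes were chosen by symbol, and they are 10 of the 26625 genes that could be named in the deposited count tables. For each gene, the RefSeq transcript entry with the most reads was kept.

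Immediate-early genes are transcribed within minutes of serum, growth factors or stress, without new protein synthesis, and many of their mRNAs are short-lived. Growth factor receptors act on them through RAS and the MAP kinases ERK, JNK and p38, which phosphorylate factors bound at their promoters such as SRF with its ELK partners, and ATF and JUN proteins. Feedback inhibitors, among them the dual-specificity phosphatases and the Sprouty proteins, are induced by the same signal and limit it.

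The libraries were made with CLT-seq, in which total RNA of cultured cells is reverse transcribed with an adaptor-flanked oligo(dT) primer, the cDNA is joined to a second adaptor and the product is amplified by PCR. HEK293T, a transformed line from human embryonic kidney, and A549, a lung carcinoma line of epithelial type, are both labelled wild type and untreated by any agent that the labels name. HEK293T was grown in high-glucose DMEM and A549 in F-12K, both with serum, so line and medium cannot be told apart. HEK293T RNA was primed with T12, T18 or T30 (a plain run of 12, 18 or 30 T, called unanchored here) or with T18V, T18VN or T18VNN (18 T followed by a base other than T and then 0, 1 or 2 arbitrary bases, called anchored), and A549 RNA with T12. The design text names the T18VN primer T12VN in one place but spells it with 18 T, and the labels give differing amounts of input RNA, without saying which libraries each applies to. Gene counts were analysed for 7 of the 9 samples, 1 for each HEK293T primer and 1 for A549. The other 2, a further T12 replicate of each line, are not used here. No primer or line therefore has a replicate with gene counts.

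Reads on genes numbered 1498224 (A549) to 5200705 (HEK293T T18), or 11.7% to 37.5% of the library totals. Levels are given as CPM, reads scaled to a total of 1000000 on genes, when a gene is compared between libraries, and as the authors' FPKM, which also divides by transcript length, when genes are compared with each other. The level of 3 reads, taken as the detection floor, was 0.577 CPM in HEK293T T18 and 2.00 CPM in A549. Of 11 lung epithelial marker genes, 5 (CDH1, KRT7, KRT8, KRT18 and KRT19) were above the floor in A549, and EPCAM, NKX2-1, NAPSA, SFTPB, SFTPC and SFTPA1 had 0 reads. The summed level of the 11 was 3875 CPM in A549 and 19.4 to 36.1 CPM in HEK293T. NKX2-1 went the other way, at 3.16 to 11.7 CPM and above the floor in all 6 HEK293T libraries. The 8 kidney and neuronal genes summed to 41.4 CPM in A549 and 1055 to 2075 CPM in HEK293T, most of it NEFM (906 to 1815 CPM in HEK293T, 0 in A549). Of these genes LHX1 and NPHS1 were higher in A549 (16.7 and 8.01 CPM) than in every HEK293T library, and WT1 lay within the HEK293T range.

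The promoters of these genes are textbook examples of signal-responsive DNA, and 4 stretches are printed because they carry the elements through which SRF, AP-1 and ATF proteins are known to act. The sequences come from RefSeq on GRCh38.p14, 5′ to 3′ on the gene's strand. A motif search covered the 250 bases before each start, on both strands. It looked for the CArG box (the SRF site), TGACTCA (the classical AP-1 site, whose reverse complement is TGAGTCA), TGACGTCA (the cyclic AMP response element), TGACATCA and TATAAA. Capitals mark the matches.
EGR1 (chr5:138465360-138465419, plus strand): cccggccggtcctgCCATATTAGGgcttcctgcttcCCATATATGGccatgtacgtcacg
JUN (chr1:58784081-58784140, minus strand): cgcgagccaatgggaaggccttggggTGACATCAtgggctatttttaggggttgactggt
JUND (chr19:18281789-18281848, minus strand): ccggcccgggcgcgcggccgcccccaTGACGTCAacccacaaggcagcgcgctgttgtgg
ATF3 (chr1:212565258-212565317, plus strand): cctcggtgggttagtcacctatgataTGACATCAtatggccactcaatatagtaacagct

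EGR1 held 2 CArG boxes, whose first bases lie at -105 and -83 from its start, and 1.16% of all 35116 promoters hold at least 1. JUN held TGACATCA at -67 and ATF3 held it at -123 from the first of its 2 listed starts, against 2.37% of promoters. JUND held TGACGTCA at -200, against 1.65% of promoters. TATAAA, found in 10.7% of promoters, lay at -31 in JUNB, at -33 in FOS and at -230 from the second start of ATF3. TGACTCA, found in 4.20% of promoters, was not among the letters of any member's window, and 8 of the 10 genes had a promoter in the table (all but FOSL1 and MYC). These matches describe the letters and show no binding. The table does not say which ATF3 start belongs to the transcript that was counted.

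An oligo(dT) primer can also pair with a run of A inside a transcript, so the longest A run of each gene's transcript (GENCODE 29 on GRCh38) is given for the 4 genes where it reached 8 bases. Capitals mark the run, and all 4 lie in the 3′ untranslated region.
JUN (chr1:58782023-58782052, minus strand): gggcaacgaagAAAAAAAAtaacacagaga
JUNB (chr19:12793281-12793310, plus strand): ctatttaagtAAAAAAAAAAttggttcttt
JUND (chr19:18279912-18279941, minus strand): tgggaagaagAAAAAAAAAttctccgcccc
EGR1 (chr5:138468577-138468606, plus strand): acttgggggAAAAAAAAAAAAgaaaagcca

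The run is 12 A in EGR1, 718 bases from the transcript's end, and 10 A in JUNB, 15 bases from the end. It is 9 A in JUND (163 bases from the end) and 8 A in JUN (1246 bases from the end). The other 6 genes have runs of 5 or 6. A run of 8 or more was present in 33.6% of 10448 detected protein-coding transcripts, against 4 of these 10. The AU-rich pentamer ATTTA, part of the elements that shorten mRNA life, occurs 9 times in FOSL2, 5 in FOS, 4 in MYC and 3 in JUN, and 8 of the 10 transcripts hold it, against 79.9% of the detected transcripts. For FOSL2 and ATF3 this transcript differs in length from the counted entry by more than 300 bases. JUN, JUNB and JUND are single-exon genes, and EGR1 and IER2 have 2 exons.

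In hg19, the build of the deposited coordinates, JUN (NM_002228.3) lies at chr1:59246463-59249785, JUNB (NM_002229.2) at chr19:12902310-12904125 and JUND (NM_001286968.1) at chr19:18390504-18392466. FOS (NM_005252.3) lies at chr14:75745481-75748937, FOSL1 (NM_005438.4) at chr11:65659607-65667997 and FOSL2 (NM_005253.3) at chr2:28615779-28637516. ATF3 (NM_001040619.2) lies at chr1:212781970-212794119, EGR1 (NM_001964.2) at chr5:137801181-137805004, IER2 (NM_004907.2) at chr19:13261282-13265722 and MYC (NM_002467.4) on chromosome 8. FOSL2 overlaps the antisense gene FOSL2-AS1, whose reads could be counted for it because a use of strand is not stated. No other member overlaps a named gene.

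**Figure D1:**
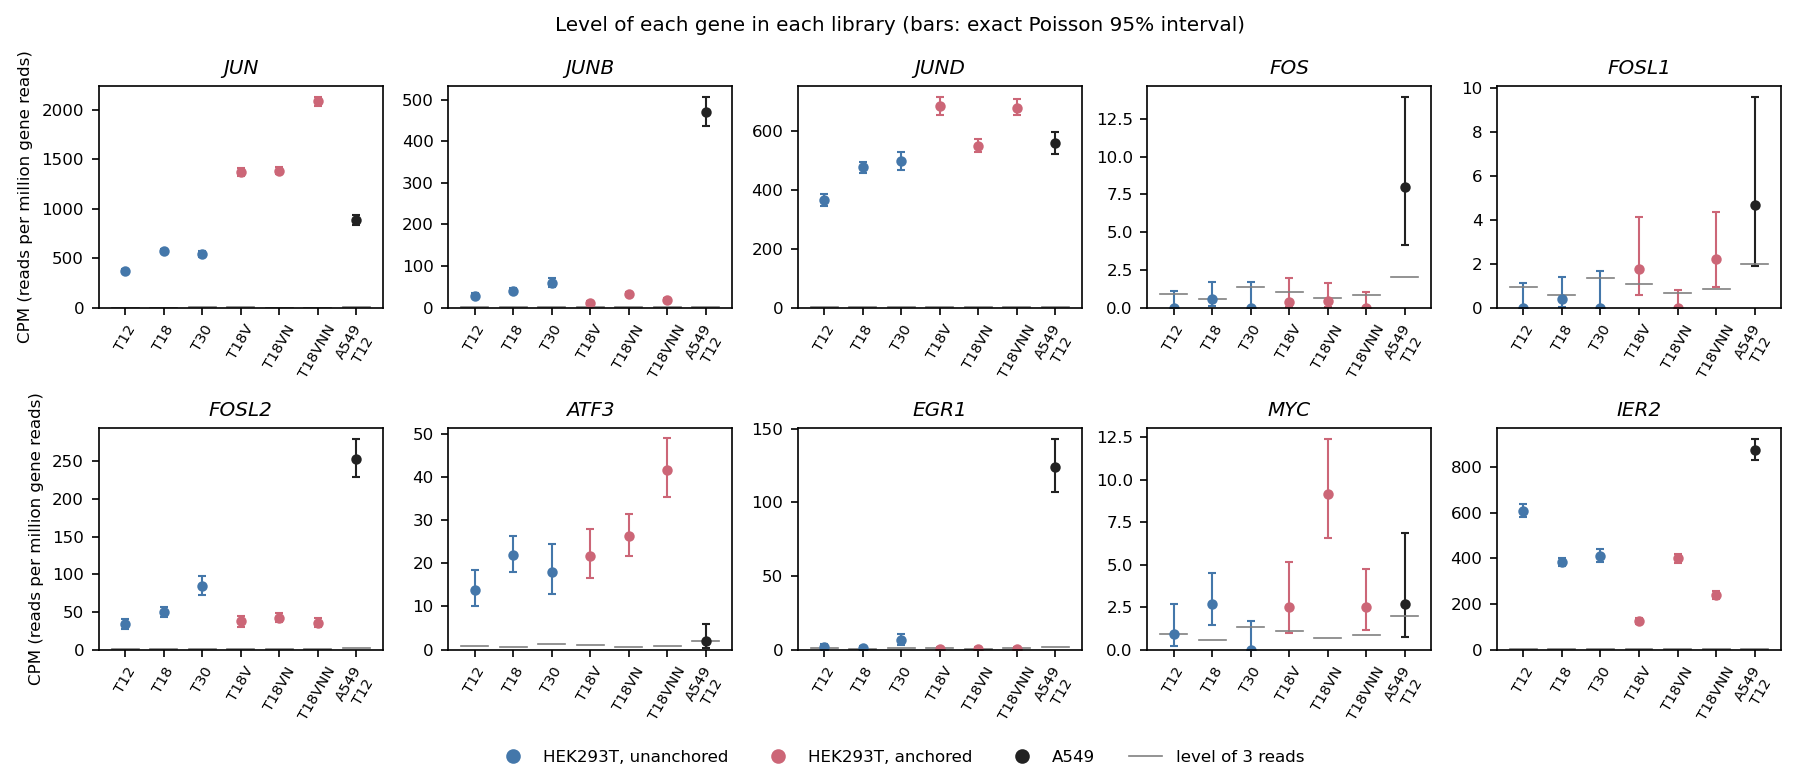
Level of each of the 10 genes in the 7 libraries, in CPM on linear axes that start at 0, with a separate scale for each gene. Points are single libraries, bars are exact Poisson 95% intervals for counting error, and grey lines mark the level of 3 reads. JUNB, FOSL2 and EGR1 stand highest in A549, at 471, 254 and 124 CPM, and ATF3 lowest, at 2.00 CPM.

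JUN, the founding AP-1 subunit and a strong transactivator, was the member that differed most clearly with the primer. Its level in HEK293T was 369 CPM with T12, 570 with T18 and 540 with T30, and 1369 with T18V, 1383 with T18VN and 2086 with T18VNN. All 3 anchored libraries were above all 3 unanchored ones, by a mean of 1613 ± 410 CPM (SD, n = 3) against 493 ± 109 CPM (SD, n = 3). A549 T12 held 885 CPM, between the unanchored and the anchored HEK293T libraries. Within the classes, T30 and T18 did not differ beyond counting error (ratio 0.947, 95% interval 0.885 to 1.01), nor did T18VN and T18V (ratio 1.01, 0.971 to 1.05).

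JUND, the subunit with the steadiest expression in most cells, varied least among the members with more than a few reads. It measured 365 CPM with T12, 476 with T18, 498 with T30, then 686 with T18V, 549.4 with T18VN and 680 with T18VNN, and 559 in A549. Its highest HEK293T library was 1.88 times its lowest, compared with 5.66 times for JUN, 4.96 for JUNB, 4.92 for IER2, 3.03 for ATF3 and 2.51 for FOSL2. The anchored libraries again lay above the unanchored ones, and A549 lay within the HEK293T range.

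JUNB, a weaker activator that can restrain JUN, was scarce in HEK293T. It measured 28.5 CPM with T12, 40.8 with T18, 60.02 with T30, then 12.1 with T18V, 32.8 with T18VN and 18.4 with T18VNN. A549 held 471 CPM, far above all 6, and the 2 primer classes overlapped.

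The makeup of the JUN family, as the share of each gene in the summed FPKM, therefore differed between libraries. JUND was the largest component with T12 (59.5%), T18 (55.6%) and T30 (56.5%), and JUN the largest with T18V (53.6%), T18VN (58.3%) and T18VNN (63.8%). JUNB made up 0.867% to 7.36% of the family in HEK293T and 32.0% in A549, where JUN was 32.9% and JUND 35.1%. A549 thus held the 3 genes at nearly equal per-length levels (35.9 FPKM for JUN, 34.9 for JUNB and 38.4 for JUND), while in HEK293T T12 they were at 19.1, 2.71 and 32.1 FPKM. The ratio of JUN to JUND in FPKM ran from 0.596 to 0.707 with unanchored primers, from 1.18 to 1.81 with anchored primers, and was 0.935 in A549. These ratios lie within a library, so its depth and scaling do not enter them.

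**Figure D2:**
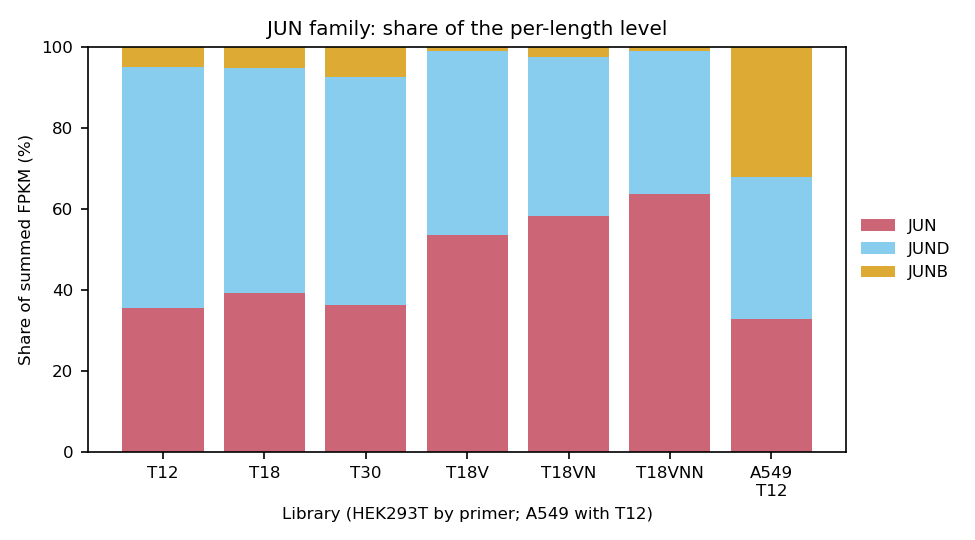
Share of JUN, JUND and JUNB in the summed FPKM of the JUN family, in percent, for each of the 7 libraries (1 stacked bar per library). JUND is the largest part of the 3 unanchored HEK293T bars, JUN of the 3 anchored ones, and JUNB reaches 32.0% in A549 only.

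FOSL2, a FOS protein without the strong activation domain of FOS, was the main FOS gene in every library. It measured 33.7 CPM with T12, 49.8 with T18, 84.4 with T30, then 37.4 with T18V, 42.6 with T18VN and 35.3 with T18VNN, and 254 in A549. A549 was above all HEK293T libraries, and T30 stood highest among those. FOSB, the fourth gene of the FOS family and not among the 10, had 0 to 12 reads in HEK293T and 19 in A549 (12.7 CPM). FOSL2 made up 80.4% to 100% of the summed FPKM of FOS, FOSB, FOSL1 and FOSL2 in HEK293T and 86.7% in A549.

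FOS, the prototype immediate-early gene, had 0 reads with T12, T30 and T18VNN, 1 with T18V, 2 with T18VN and 3 with T18, and 12 reads in A549 (8.01 CPM). FOSL1, a FOS protein with sustained rather than brief expression, had 0 to 8 reads in HEK293T and 7 in A549 (4.67 CPM). Both were at or under the floor in HEK293T T12, and A549 was above the HEK293T range for both. The JUN family exceeded these 4 FOS family genes in summed FPKM 21.2- to 89.5-fold in HEK293T and 11.1-fold in A549.

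ATF3, a stress-induced factor that represses or activates according to its partner, was the only member lower in A549 than in every HEK293T library. It measured 13.8 CPM with T12, 21.9 with T18, 18.1 with T30, then 21.7 with T18V, 26.3 with T18VN and 41.7 with T18VNN. A549 held 3 reads, 2.00 CPM, its floor. T12 was the lowest and T18VNN the highest HEK293T library, and the primer classes overlapped.

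EGR1, which transmits the growth factor signal to its own set of targets, was near the floor in HEK293T. It had 5 reads (1.53 CPM) with T12, 7 (1.35 CPM) with T18, 14 (6.32 CPM) with T30, then 1 (0.356 CPM) with T18V, 3 (0.670 CPM) with T18VN and 2 (0.556 CPM) with T18VNN. In A549 it had 186 reads, 124 CPM. The anchored libraries lay below the unanchored ones, but on at most 14 reads.

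IER2, whose promoter responds to the same signals, was abundant in both lines. It measured 609 CPM with T12, 383 with T18, 411 with T30, then 124 with T18V, 399 with T18VN and 239 with T18VNN, and 875 in A549. A549 was above all HEK293T libraries, T12 highest among those and T18V lowest, and the primer classes overlapped. IER2 was the highest of the 10 genes per length in A549 (57.5 FPKM) and in HEK293T T12 (51.3 FPKM), whereas JUN was the highest with the 3 anchored primers (117 to 174 FPKM).

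MYC had 3 reads with T12, 14 with T18, 0 with T30, then 7 with T18V, 41 with T18VN and 9 with T18VNN, and 4 in A549. In CPM this is 0 to 9.15 in HEK293T and 2.67 in A549, which lay within that range. MYC was thus at or near the floor in most libraries, and only T18VN, with 41 reads, stood clear of the other HEK293T libraries.

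The comparison of anchored with unanchored primers in HEK293T asks how the anchor bases shift what is measured. Of the 10 genes, 6 passed the filter on low counts and 1, JUN, passed the test, against 1.35% of all 10887 genes tested. JUN was higher with anchored primers by 1.53 on the log2 scale (SE 0.31, edgeR quasi-likelihood test, BH-adjusted p = 0.0387), and 0.781% of all genes were called higher. The call was lost in each fit without 1 library (adjusted p 0.0663 to 0.168), while the log2 difference stayed between 1.28 and 1.64. FOS, FOSL1, EGR1 and MYC had too few reads for this test.

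The other 5 genes tested did not pass. JUNB had a log2 difference of -1.20 (SE 0.47, edgeR adjusted p = 0.249) and IER2 one of -1.05 (SE 0.40, edgeR adjusted p = 0.235), and both had an unadjusted p under 0.05 (0.0264 and 0.0234). FOSL2 gave -0.72, ATF3 0.56 and JUND 0.34, with adjusted p from 0.423 to 0.629. The median over the 6 genes was -0.19, and over all genes -0.0017. Without scaling beyond the reads on genes, the median of all genes moved to 0.17 and the calls to 153 higher and 57 lower, from 85 and 62.

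The 3 libraries of each class did not overlap for JUN and JUND (anchored above, as for 16.8% of all genes tested) or for EGR1 (anchored below). EGR1 is not among the genes tested, of which 6.80% had anchored below. The classes overlapped for the other 7. All 3 anchored libraries had smaller totals and larger shares on genes than the unanchored ones, and the part of these in the JUN difference was not tested. Each primer has 1 library, so the spread in this test is that between primers of a class.

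**Figure D3:**
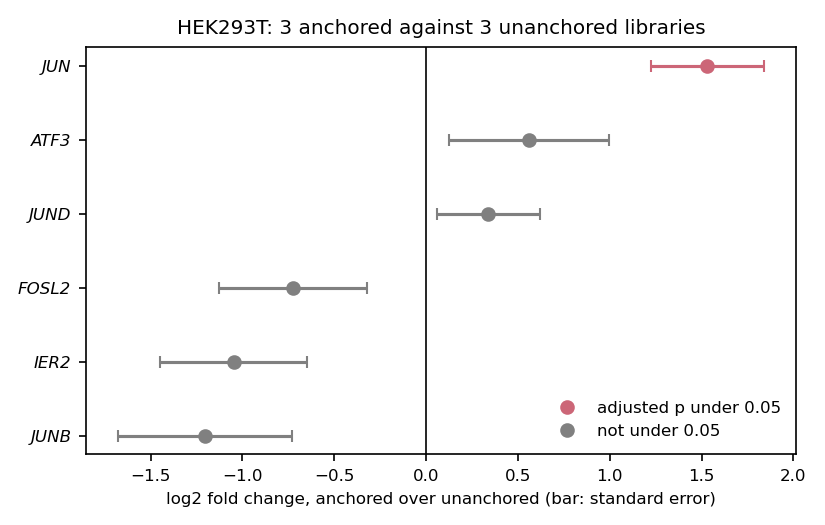
Log2 fold change of the 3 anchored over the 3 unanchored HEK293T libraries for the 6 tested genes, with bars of 1 standard error from edgeR. JUN, at 1.53, is the gene with an adjusted p under 0.05; JUNB and IER2 lie at -1.20 and -1.05 without reaching it.

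Single steps in primer design were compared as ratios between 2 libraries, for genes that reached 20 reads in either of them, with intervals that cover counting error only. FOS, FOSL1, EGR1 and MYC did not reach 20 reads with T12, T18 or T30. Between T18 and T12, where 29.1% of all genes were at least 2-fold apart, no other member was. Between T30 and T18 (27.7% of genes) none of them was either. From T12 to T30 (36.9% of genes), JUNB was 2.11-fold higher (1.60 to 2.78) and FOSL2 2.51-fold higher (1.97 to 3.20).

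Adding 1 anchor base, T18V against T18 (32.5% of genes at least 2-fold apart), went with a 2.40-fold higher JUN (2.29 to 2.52). JUNB was 3.37-fold and IER2 3.10-fold lower in the same step. Going from T18V to T18VN (28.6% of genes), JUNB was 2.71-fold (1.86 to 4.06), IER2 3.23-fold (2.87 to 3.63) and MYC 3.67-fold higher (1.63 to 9.71). JUNB and IER2 were thus low with T18V and back near their T18 level with T18VN. From T18VN to T18VNN (23.6% of genes), FOS, FOSL1 and EGR1 had too few reads. Among the other members only MYC was at least 2-fold apart, 3.66-fold lower, on 9 against 41 reads.

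The comparison of A549 with HEK293T under the same T12 primer asks how the lines differ. With 1 library each it has no replicate check and no p-value, and 60.2% of the 10145 genes that reached 20 reads in either library were at least 2-fold apart. Of the 10 genes, 7 reached 20 reads. Of these, 4 were at least 2-fold higher in A549, against 31.0% of all genes, 1 was lower, against 29.2%, and 2 were less than 2-fold apart. EGR1 reached 20 reads only in A549, the smaller library, so it had to be called higher. ATF3 reached 20 reads only in HEK293T, which did not by itself make it lower. Of the 5 genes with 20 reads in both libraries 3 were higher and 0 lower, against 28.2% and 19.4% of 6224 genes. In RNA of whole cultures, fewer cells with a transcript and less of it per cell cannot be told apart.

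EGR1 was 81.1-fold higher in A549 (186 against 5 reads, 95% interval for counting error 34.1 to 253). JUNB was 16.5-fold higher (706 against 93 reads, 13.3 to 20.8) and FOSL2 7.53-fold higher (380 against 110 reads, 6.08 to 9.40). JUN was 2.40-fold higher (1326 against 1204 reads, 2.22 to 2.60). Scaled to library totals instead of reads on genes, JUN was less than 2-fold higher. ATF3 was 6.88-fold lower, on 3 against 45 reads (2.21 to 34.6).

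JUND was 1.53-fold and IER2 1.44-fold higher, both less than 2-fold. FOS, with 12 reads against 0, was at 8.72 times the floor of 3 reads in the HEK293T library. FOSL1, with 7 against 0, was at 5.09 times that floor. With counting error, the lower limits of the ratio between the libraries were 6.06 for FOS and 3.14 for FOSL1. MYC, on 4 against 3 reads, had a ratio of 2.91 with an interval of 0.492 to 19.8.

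The direction for JUN depended on the HEK293T library used. Its A549 level was 2.40-fold that of T12 but 0.424-fold that of T18VNN, and on the log2(CPM + 1) scale the difference ran from 1.26 to -1.24 over the 6 references. JUNB ran from 2.95 to 5.17, FOSL2 from 1.58 to 2.88, EGR1 from 4.10 to 6.53, IER2 from 0.52 to 2.81 and ATF3 from -2.30 to -3.83 on that scale, each with 1 direction. Among the 7 genes with 20 reads, A549 lay above the range of all 6 HEK293T libraries for JUNB, FOSL2, EGR1 and IER2, as for 33.8% of the 10145 genes. It lay below the range for ATF3, as for 28.8%, and within it for JUN and JUND. Of the 3 genes with fewer reads, it lay above the range for FOS and FOSL1, for FOSL1 not beyond counting error, and within it for MYC.

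**Figure D4:**
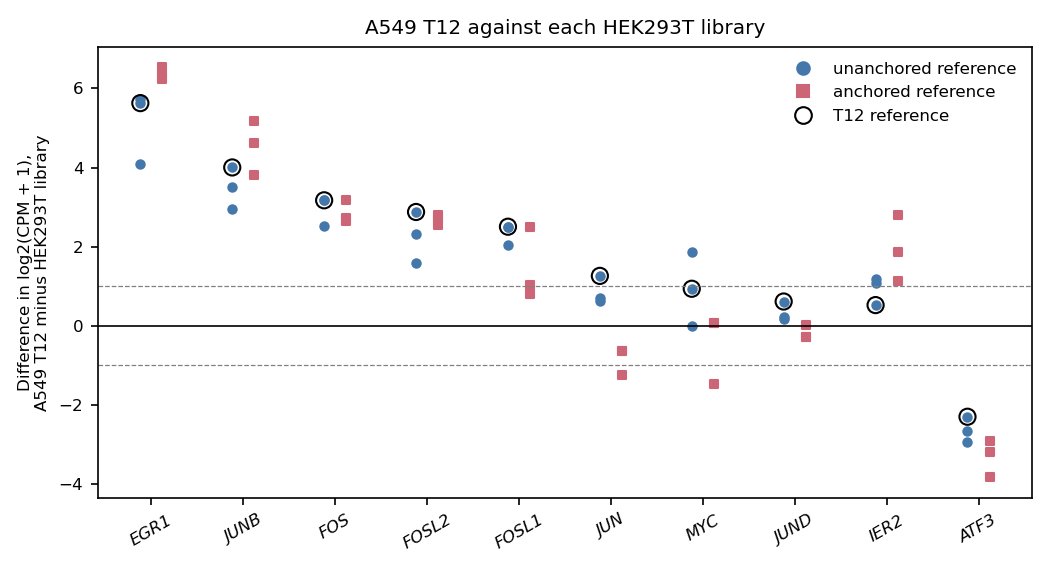
Difference in log2(CPM + 1) between A549 T12 and each HEK293T library for the 10 genes, ordered by the T12 difference. Circles are unanchored and squares anchored HEK293T references, the open ring is T12, and dashed lines mark 2-fold. JUN crosses 0 between the unanchored and the anchored references (1.26 to -1.24), while EGR1, JUNB and FOSL2 stay above 1 and ATF3 below -2.

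A fit of A549 against all 6 HEK293T libraries asks whether the A549 level lies beyond the spread between HEK293T primers, and it assumes that the lone A549 library varies like them. It shares the T12 library and the A549 library with the comparison above. All 10 genes were tested, and 4 passed, against 16.2% of the 13678 genes: 3 higher (8.22% of genes were) and 1 lower (7.95%).

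EGR1 was higher by 5.94 on the log2 scale (SE 0.88, edgeR adjusted p = 0.000858), JUNB by 3.63 (SE 0.59, adjusted p = 0.00158) and FOSL2 by 2.19 (SE 0.52, adjusted p = 0.0134). ATF3 had a log2 difference of -3.74 (SE 0.96, edgeR adjusted p = 0.0208). The 4 calls held in each fit without 1 HEK293T library. Against the 3 unanchored libraries alone, EGR1 and JUNB passed, and FOSL2 (1.92, edgeR adjusted p = 0.0574) and ATF3 (-3.40, adjusted p = 0.0690) did not.

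FOS, at 4.61 (edgeR adjusted p = 0.109), FOSL1 at 2.46 (0.476) and IER2 at 1.04 (0.292) did not pass. JUN at -0.42, MYC at -0.33 and JUND at -0.16 did not pass either, and all 3 changed sign when the anchor was a covariate (0.54, 0.75 and 0.019). The median over the 10 genes was 1.62, against -0.36 over all genes tested, and the latter was -0.18 with size factors of the DESeq2 type. FOS and FOSL1 met the filter on low counts through their A549 reads alone. Both therefore had to be higher in A549, which raises the median of the 10 genes.

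The genes around the members were followed through 7 lists of pathway genes, with 122 symbols, all of them found in the tables. Between anchored and unanchored primers, 83 of these genes were tested and 0 passed in edgeR (BH-adjusted p under 0.05), with 11 at an unadjusted p under 0.05. DESeq2 called 3 of them, ATF7, EGFR and NAB1. The counts below are for A549 against HEK293T T12, with at least 2-fold as the rule, and then for A549 against all 6 HEK293T libraries in edgeR. The medians are log2(CPM + 1) differences of A549 from HEK293T T12, beside 0.02 for all genes. The shares to read these counts against are 31.0% of all genes higher and 29.2% lower, and in edgeR 8.22% and 7.95%. The number of genes that reached 20 reads in A549 alone or in HEK293T T12 alone is given too. So are the counts over genes with 20 reads in both libraries (all genes: 28.2% higher, 19.4% lower). Genes that reached 20 reads only in HEK293T T12 did not have to be lower, as MAPK8 (16 A549 against 55 HEK293T reads) was less than 2-fold apart. Those that did so only in A549, the smaller library, had to be at least 2-fold higher there. In edgeR, a gene that met the filter on low counts through A549 alone likewise had to be higher there.

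Of 28 genes of the growth factor and MAP kinase input, 9 had too few reads. Of the other 19, 9 were higher and 3 lower (MAPK14, ELK1 and SRF), with a median of 0.93. ELK3 reached 20 reads only in A549 and so had to be higher, and MAPK8, RPS6KA1 and ELK1 reached 20 reads only in HEK293T. Of the 15 with 20 reads in both libraries, 8 were higher (53.3%, against 28.2% of all genes) and 2 lower (13.3%, against 19.4%). In edgeR 2 of 23 were higher and 1 lower, and only these edgeR counts were near the shares of all genes. EGFR, the epidermal growth factor receptor, was 6.20-fold higher (340 against 54.8 CPM) and passed in edgeR (log2 3.54, adjusted p = 0.00411), with an antisense gene overlapping it. MET, the hepatocyte growth factor receptor, was 6.39-fold higher and passed (3.17, edgeR adjusted p = 0.00288). SRF, the factor that binds the CArG box, was 5.17-fold lower (59.4 against 307 CPM) and passed (-2.27, edgeR adjusted p = 0.0183). The ETS factor ELK3 had 36 reads against 0, or 26.2 times the HEK293T T12 floor (lower limit of the ratio for counting error 20.2). The kinase RPS6KA3 was 23.3-fold higher, but neither ELK3 nor RPS6KA3 passed against all 6 libraries.

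Of 25 other early response genes, 8 had too few reads, among them EGR2, EGR3, EGR4 and ARC with 0 in both libraries. Of the other 17, 13 were at least 2-fold higher and none lower, with a median of 1.73, and in edgeR 6 of 19 were higher. ZFP36, CCN1, PHLDA1 and SGK1 reached 20 reads only in A549, and of the 13 genes with 20 reads in both libraries 9 were higher. PHLDA1 measured 140 CPM in A549 and 0.612 in HEK293T T12 (log2 6.04 in edgeR, adjusted p = 0.000432). ZFP36, which binds AU-rich elements and speeds the decay of early response mRNAs, measured 50.1 against 0.612 CPM (4.85, edgeR adjusted p = 0.00364). IER3 measured 109 against 6.12 CPM (3.94, edgeR adjusted p = 0.00109), with entries on 6 sequence names, so its reads may be split. SGK1, a serum-induced kinase, had 34 reads against 0, or 24.7 times the HEK293T T12 floor (lower limit of the ratio for counting error 19.0).

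Of 14 feedback inhibitors, 2 (DUSP6 and SPRY2) had too few reads. Of the other 12, 9 were higher and 3 lower (DUSP2, DUSP8 and FBXW7), with a median of 2.33, and in edgeR 5 of 14 were higher and 1 lower. Of the 12, 4 (SPRY4, SPRED1, SPRED2 and NAB1) reached 20 reads only in A549 and DUSP2 and DUSP8 only in HEK293T, and of the 6 that did in both, 5 were higher and 1 lower. SPRY4, a Sprouty inhibitor of receptor signalling, had 74 reads against 0, with SPRY4-IT1 overlapping it. Its A549 level was 53.8 times the HEK293T T12 floor (lower limit of the ratio for counting error 42.6). The MAP kinase phosphatase DUSP4 was 8.90-fold higher (log2 4.50, edgeR adjusted p = 0.00162) and DUSP1 6.98-fold higher (3.19, adjusted p = 0.0183). SPRED1 and SPRED2, which restrain RAS activation, were at 36.0 and 32.7 CPM in A549, each on 3 reads in HEK293T T12, and passed in edgeR (4.06, adjusted p = 0.0134, and 3.05, adjusted p = 0.0442). FBXW7, a ubiquitin ligase subunit that targets JUN and MYC proteins, was the gene called lower.

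Of 17 other bZIP factors, which can pair with AP-1 proteins or bind related sites, 8 had too few reads. Of the other 9, 3 were higher and 4 lower, with a median of -0.05, and in edgeR 2 of 16 were higher and 1 lower, near the shares of all genes. MAFK reached 20 reads only in A549 and so had to be higher, and MAF and DDIT3 reached 20 reads only in HEK293T. Of the 6 with 20 reads in both libraries, 2 were higher and 2 lower. The small MAF proteins MAFG (4.12-fold, log2 2.40, edgeR adjusted p = 0.0371) and MAFK (19.6-fold, 2.38, adjusted p = 0.0371) were higher. MAF, the large MAF protein, was 10.6-fold lower, on 7 against 162 reads (-3.65, edgeR adjusted p = 0.00984). CEBPB was 8.50-fold higher, and the stress-response factor DDIT3, like ATF3 a target of ATF4, had 2 reads against 105; neither passed in edgeR. ATF4 was itself among the 4 lower genes, with CREB5 the other one. MAFK, CEBPB and DDIT3 each overlap another gene.

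Of 16 genes often listed as AP-1 targets, 5 (MMP1, MMP3, MMP9, MMP10 and IL6) had 0 reads in both libraries. Of the other 11, 9 were higher and none lower, with a median of 2.91, and in edgeR 6 of 11 were higher. Of the 11, 5 reached 20 reads only in A549, and of the 6 that did in both, 4 were higher. CD44, the hyaluronan receptor, measured 695 CPM against 0.612 (log2 8.97, edgeR adjusted p = 2.18e-05). PLAU, the urokinase plasminogen activator, was 45.0-fold higher (537 against 11.9 CPM, edgeR adjusted p = 1.54e-05). The chemokine CXCL8 had 222 reads in A549 and 0 in all 6 HEK293T libraries. Its A549 level was 161 times the T12 floor (lower limit of the ratio to T12 for counting error 130). LIF, a cytokine, was 28.3-fold higher on 65 against 5 reads.

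Of 11 genes of the MYC network, MYCN had 0 reads in both libraries. Of the other 10, 2 were higher and 3 lower, with a median of -0.66, and in edgeR 1 was higher and 2 lower, counts near the shares of all genes. MXD1 and MYCL reached 20 reads only in HEK293T. Of the 8 with 20 reads in both libraries, 2 were higher and 2 lower. MNT, a repressor that competes with MYC for MAX, was 3.14-fold higher (2.62, edgeR adjusted p = 0.0338), MXD3 6.59-fold lower (-2.65, adjusted p = 0.00831, with PRELID1 overlapping it) and MYCL 6.08-fold lower on 4 against 53 reads (-3.12, adjusted p = 0.0488). MXD4 was 2.28-fold higher than T12 but within the HEK293T range, and MGA was the third lower gene.

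Of 11 genes often listed as MYC targets, 1, LDHA, was higher and 6 lower, with a median of -1.34, and in edgeR 4 were lower. NOP56 and TERT reached 20 reads only in HEK293T, and of the 9 genes that did in both, 1 was higher and 4 lower. ODC1, the first enzyme of polyamine synthesis, was 5.43-fold lower (72.1 against 391 CPM, log2 -2.81, edgeR adjusted p = 0.00558). The nucleolar proteins NCL and NOP56 were 4.57- and 5.48-fold lower (-2.62, edgeR adjusted p = 0.00567, and -3.32, adjusted p = 0.00778), and CDK4 was 3.25-fold lower (-1.58, adjusted p = 0.0368). TERT, the telomerase subunit, had 0 A549 reads against 25. ODC1, NCL, NOP56 and CDK4 all overlap small RNA or other genes. The lung epithelial and kidney markers given above differ between the libraries in the same comparison, and their part in these lists was not tested.

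**Figure D5:**
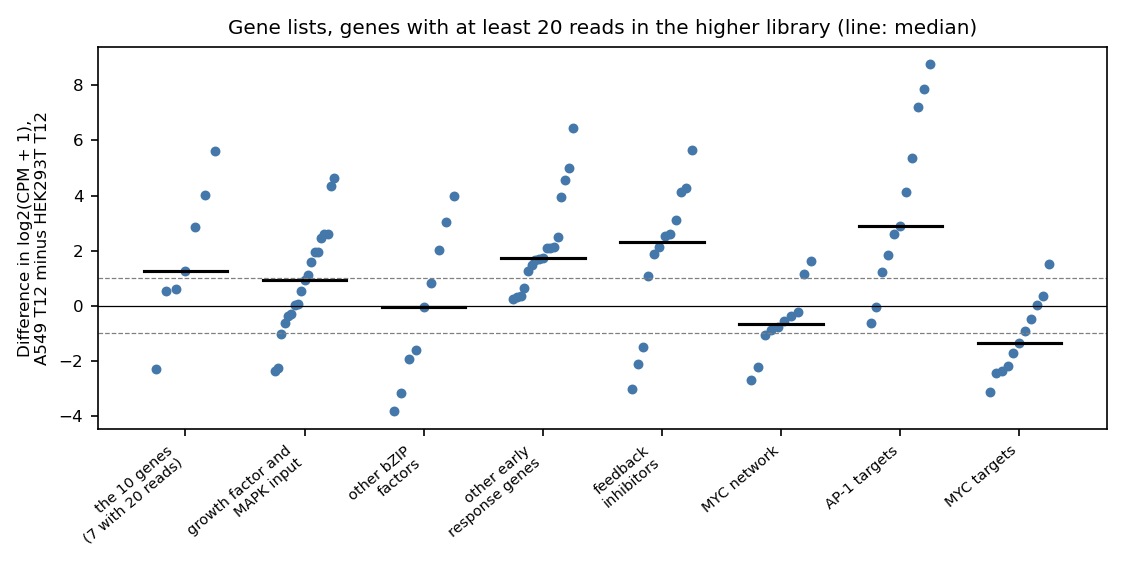
Difference in log2(CPM + 1) between A549 T12 and HEK293T T12 for the 10 genes and the 7 lists, 1 point per gene that reached 20 reads in either library. Black lines are medians and dashed lines 2-fold. The medians run from -1.34 (MYC targets) to 2.91 (AP-1 targets), with 0.02 for all genes.

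Likeness of pattern was measured as Pearson's r of log2(CPM + 1) over the 7 libraries, among 9446 genes with at least 50 reads in their highest library, for the members with the highest and the lowest A549 to HEK293T T12 ratio. Genes among the 3 most like EGR1 were PTGR1 (r = 0.995) and CCDC71L (0.986). PTGR1, a prostaglandin and leukotriene reductase, measured 352 CPM in A549 and at most 6.32 in HEK293T. Those most like ATF3 were PROX1 (r = 0.995), CCND2 (0.989) and UBE2D3 (0.988), with PROX1, a homeobox factor, at 6.67 CPM in A549 and 36.7 to 81.7 in HEK293T. With 7 points, 1 of them A549, such an r mostly sets A549 against the other libraries and is given as a description.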

How the data were processed

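Read counts per RefSeq transcript, FPM (a signal, the count scaled to the library total) and FPKM were deposited by the authors for 7 libraries, per the file headers. The submitters' processing notes name FastQC 0.11.8, cutadapt 2.10, Trimmomatic 0.39, HISAT2 2.2.1 and SAMtools, and the builds hg19 and GRCh37. The counter, its use of strand and its treatment of multiply mapped reads are not given in the sources used here. The deposited counts were the basis of every test and of CPM. The FPKM deposited by the authors served to compare genes, and the deposited FPM signal only to recover library totals (7491993 to 25578543).

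Of 61177 entries, 60133 (98.3%) matched a RefSeq symbol and 1044 were left out; the entry with most reads was kept per gene. All p-values come from edgeR 4.0.16 (R 4.3.3): filterByExpr, TMM, quasi-likelihood test, Benjamini-Hochberg adjustment over all genes tested, threshold 0.05. The SE is the log2 fold change divided by the square root of F. DESeq2 1.42.0 was an alternative, and the fits were tested on simulated data. The A549 to HEK293T T12 difference used log2(CPM + 1), which understates changes of low genes, and a minimum of 20 reads. Poisson intervals for levels and exact conditional binomial intervals for ratios (95%) cover counting error alone, as PCR reads carry no molecular identifiers and are not independent. Primers stand in for replicates.

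Groups came from the sample titles. The members and lists were chosen with earlier results of these data known. Named are all 10 members, of each list up to 4 called genes with the largest change per comparison, and genes that a count of 5 or fewer refers to. Of the genes this rule picks, 2 are not reported here. Alternatives were other scalings, DESeq2, filters, pseudocounts, references and transcript entries, a covariate for the anchor, and leaving out each HEK293T library.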

Additional observations from a re-analysis of the deposited data

Results flagged for a closer look

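Among the 6 HEK293T libraries, which differ in primer and are not replicates, 3 of the 10 genes had 1 library far from the other 5 by Dixon's gap-to-range ratio (above the 95% critical value for 6 samples). About 0.5 such genes would be found in 10 by chance. FOSL2 measured 84.4 CPM with T30, with a gap of 0.682 of its range. EGR1 measured 6.32 CPM with T30 (gap 0.803), on 14 reads. MYC measured 9.15 CPM with T18VN (gap 0.706), on 41 reads.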

How the results depend on the processing

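No paired analysis was possible because only 1 T12 library of each line has gene counts, so the replicate numbers that the lines share pair no samples. Between anchored and unanchored primers, the number of members called was 0 in each edgeR fit without 1 library (against 1, with 1 to 3 members at an unadjusted p under 0.05), and the number of all genes called was 46 to 111, against 147. It was 597 (282 higher, 315 lower) with DESeq2 and 556 (283 and 273) without a filter on low counts. JUN kept its direction and call in the 5 other alternatives. For A549 against 6 HEK293T libraries, leaving 1 out kept 4 members called and 1841 to 2273 genes, against 2212. With the unanchored libraries only, 2 members were called, and JUN (0.58) and JUND (0.059) changed sign. The anchor as a covariate reversed JUN (0.54), JUND (0.019) and MYC (0.75), and JUND was 0.030 with DESeq2 and 0.030 with its size factors; none of these was called in either fit, and the cause was not tested. EGR1 and JUNB kept direction and call in all 12 alternatives. For A549 against HEK293T T12, JUN reversed (-0.13) with the median of the HEK293T libraries as reference. TMM scaling moved the median of all genes from 0.02 to -0.20 (45.2% of the 2-fold genes higher, against 51.5%), and the library total to -0.26 (42.3%). Depth limits FOS, FOSL1, MYC and, in HEK293T, EGR1. With 20 reads required in both libraries, 3 members were at least 2-fold apart (against 5), since EGR1 and ATF3 drop out by construction. This alternative and the sums with FOSB were added after the data were seen.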
